A study of Drosophila melanogaster with 8 samples.

Results

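The transcriptional response to cyclic di-GMP (c-di-GMP) was followed in S2 cells whose DmSTING transcript had been targeted by RNA interference. The 4 arrays titled as DmSTING RNAi, 2 with c-di-GMP and 2 mock transfected, out of 8 arrays in the series, were selected by their titles, and the comparison covers the 11009 genes that a probe set assigned to a single gene could measure. S2 cells are a Drosophila melanogaster line of embryonic origin with macrophage-like properties. The c-di-GMP group received dsRNA against DmSTING and, 72 h later, c-di-GMP with the lipid reagent Cellfectin. The mock group received the same dsRNA and, after the same interval, Cellfectin alone. The remaining 4 arrays carried a scrambled dsRNA, 2 with c-di-GMP and 2 mock transfected; they enter the estimate of spread and the test of whether the response differed between dsRNAs. RNA was extracted 24 h after the second transfection in all groups. The genotype entries contradict the titles for 4 arrays, and the source names side with the titles. The labels do not say that replicates were separate cultures, so p-values reflect the spread between these arrays, which may be technical.

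STING is a receptor of cyclic dinucleotides at the endoplasmic reticulum. In flies it acts upstream of the kinase IKKbeta and the NF-kappaB factor Relish (Rel), the factor that also ends the IMD pathway, in which peptidoglycan recognition proteins sense bacterial cell wall and antimicrobial peptide genes are the best known targets. c-di-GMP is a second messenger made by bacteria, and the series asks what DmSTING contributes to the response to it.

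The deposited log2 values are centred, each probe set having a median of 0 across the 8 arrays, so a value of 0 is not an absence of transcript and levels of different genes cannot be compared. For the same reason the S2 label could not be checked against the level of its markers. The targeted gene, Sting, stood at -0.84 and -0.75 in the c-di-GMP samples and at -0.48 and -0.46 in the mock samples. All 4 arrays with scrambled dsRNA were higher, at 0.57 and 0.46 with c-di-GMP and at 0.81 and 0.83 in mock. Within the knockdown, both c-di-GMP samples were therefore lower than both mock samples, by 0.33 (SE 0.07, n = 2 per group, limma adjusted p = 0.0376). This small difference was called only narrowly: the adjusted p was 0.154 without c-di-GMP replicate 1, 0.0993 without replicate 2 and 0.735 after quantile normalization, where the change was -0.10. Sting fell by a like amount with scrambled dsRNA (change -0.31, SE 0.07, limma adjusted p = 0.0367), and the difference between the arms was -0.02. In bulk RNA, fewer cells with a transcript and less transcript per cell cannot be told apart.

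After DmSTING dsRNA, c-di-GMP was followed by higher transcripts of most measured ribosome assembly genes, 44 of 55, and of the trehalose transporter Tret1-1. Transcripts of the carbonic anhydrases CAH1 and CAH2, of 6 of 29 lipid genes and of 8 of 31 autophagy and mitophagy genes were lower. These changes were not particular to the knockdown. With scrambled dsRNA, Tret1-1 changed by 1.67, CAH1 by -1.79 and CAH2 by -1.23, all called. There, 9 lipid genes and 12 autophagy and mitophagy genes were called lower. Of the 11009 genes, 819 (7.44%) passed an adjusted p of 0.05 after DmSTING dsRNA, of which 360 (3.27%) were higher and 459 (4.17%) lower. Most changes were modest, with a median size of 0.45 log2 units among the called genes, and 5 genes (0.0454%) rose and 16 (0.145%) fell at least 2-fold. The median of all genes was -0.0174. Each called gene had both c-di-GMP samples on one side of both mock samples, an arrangement that 24.5% of all genes showed upward and 31.3% downward. The calls depend on having 2 mock arrays: without either one, 0 genes passed in limma, at a smallest adjusted p of 0.0536 and 0.0528, while 1474 and 1523 had an unadjusted p under 0.05. With either c-di-GMP array left out, 124 of the 819 genes were called both times, among them 23 of the 30 genes with the largest rises and falls.

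The gene that rose most encodes the trehalose transporter Tret1-1, which carries the main blood sugar of insects across the cell membrane. Tret1-1 stood at 0.69 and 0.72 in the c-di-GMP samples and at -0.69 and -0.84 in the mock samples. The gap between the groups was far wider than that within either, and the change of 1.47 (SE 0.09) was 2.78-fold (adjusted p = 0.00211). Enzymes that handle the sugar inside the cell moved the same way. Hex-A, a hexokinase, stood at 0.52 and 0.35 with c-di-GMP and at -0.37 and -0.47 in mock (change 0.86, SE 0.08, adjusted p = 0.00424). Treh, the trehalase that splits trehalose into glucose, stood at 0.26 and 0.29 with c-di-GMP and at -0.32 and -0.26 in mock (change 0.57, adjusted p = 0.00856). Pepck1, the phosphoenolpyruvate carboxykinase of gluconeogenesis, went the other way, at -0.29 and -0.12 with c-di-GMP and at 0.50 and 0.62 in mock (change -0.77, adjusted p = 0.0184). Of the 26 measured genes of sugar transport, trehalose and glycolysis these 3 rose and Pepck1 fell (15.4% called, against 7.44% of all genes). The list's median of 0.06 lay close to that of all genes.

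Tdh, threonine dehydrogenase, stood at 0.79 and 0.83 in the c-di-GMP samples and at -0.44 and -0.35 in the mock samples (change 1.20, SE 0.10, adjusted p = 0.00337). CG3348, of which no role is given here, stood at 0.89 and 0.82 with c-di-GMP and at -0.56 and -0.51 in mock (change 1.39, adjusted p = 0.00211). The UDP-glycosyltransferase gene Ugt302K1 stood at 0.60 and 0.66 with c-di-GMP and at -0.64 and -0.43 in mock (change 1.17, adjusted p = 0.00424). In these genes the 2 c-di-GMP samples lay close together. In MFS14 and CG6908 they did not: MFS14, a transporter of the major facilitator family, stood at 1.004 and 0.53 with c-di-GMP and at -0.15 in both mock samples (change 0.92, SE 0.19, adjusted p = 0.0319), and CG6908 stood at 0.93 and 0.49 with c-di-GMP and at -0.09 and -0.31 in mock (change 0.91, SE 0.16, adjusted p = 0.0187). Without c-di-GMP replicate 1 the changes of MFS14 and CG6908 were 0.68 and 0.69, and neither was called. MFS14 lost its call without replicate 2 as well. The taste receptor gene Gr94a rose by 0.86 (adjusted p = 0.0127), although chemoreceptor genes as a class did not move: of 127 measured, 1 rose and 1, Ir76a, fell. Gr94a was not called without replicate 2.

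**Figure D1:**
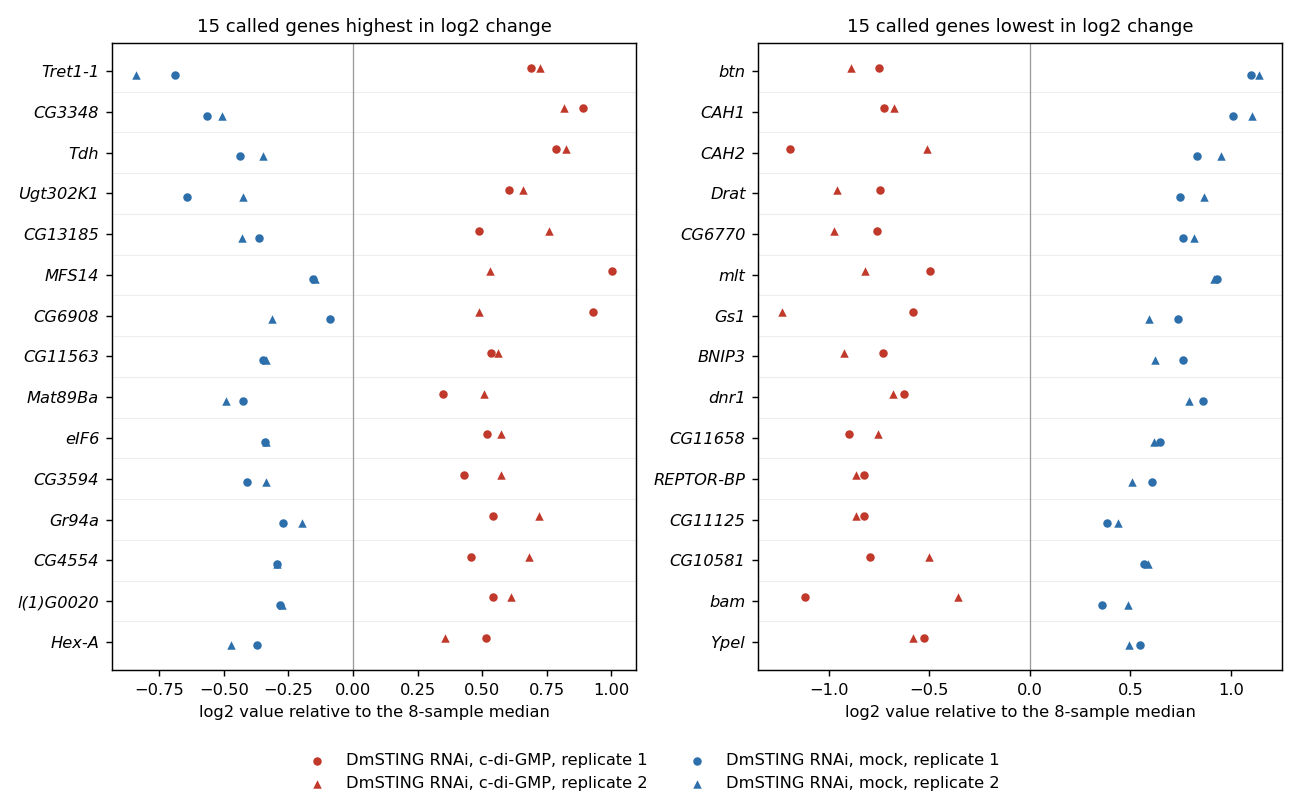
Log2 values relative to the 8-array median (horizontal axes) of the 15 called genes with the highest and the 15 with the lowest log2 change after DmSTING dsRNA; circles are replicate 1 and triangles replicate 2, in red for c-di-GMP and blue for mock. The groups do not overlap in any of the 30 genes; CAH2, Gs1, bam, MFS14 and CG6908 have widely spaced c-di-GMP replicates.

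Among the genes that fell, btn, the homeodomain factor Buttonless, had the largest change. It stood at -0.75 and -0.89 in the c-di-GMP samples and at 1.10 and 1.14 in the mock samples (change -1.94, SE 0.15, 3.83-fold lower, adjusted p = 0.00337). Both carbonic anhydrases CAH1 and CAH2, enzymes that interconvert carbon dioxide and bicarbonate, followed. CAH1 stood at -0.73 and -0.68 with c-di-GMP and at 1.01 and 1.11 in mock (change -1.76, adjusted p = 0.00337). CAH2 stood at -1.19 and -0.51 with c-di-GMP and at 0.83 and 0.95 in mock (change -1.74, SE 0.26, adjusted p = 0.0127), its c-di-GMP replicates being far apart. Without replicate 1 CAH2 was not called. The other 11 measured carbonic anhydrase genes were not called and had changes between -0.23 and 0.31, those of CAH9 and CAH6. With scrambled dsRNA btn changed by -2.46.

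BNIP3, a receptor that marks mitochondria for mitophagy, stood at -0.73 and -0.92 in the c-di-GMP samples and at 0.76 and 0.62 in the mock samples (change -1.52, SE 0.13, adjusted p = 0.00337). Gs1, the mitochondrial glutamine synthetase, stood at -0.58 and -1.23 with c-di-GMP and at 0.73 and 0.59 in mock (change -1.57, SE 0.21, adjusted p = 0.00856). REPTOR-BP, the bZIP partner of the transcription factor REPTOR that is active when TORC1 is low, stood at -0.83 and -0.87 with c-di-GMP and at 0.61 and 0.51 in mock (change -1.40, SE 0.10, adjusted p = 0.00315). All 3 separated the groups by over a log2 unit in each pair of samples. Drat, known as a death resistor with an alcohol dehydrogenase domain, and CG6770 each changed by -1.66, and mlt, a tubulin-folding cofactor-like protein, by -1.58. The others of the 15 with the largest falls were CG11658 at -1.46, CG11125 at -1.25, CG10581 at -1.23, bam at -1.16, Ypel at -1.07 and dnr1, described with the immune genes. CG11658 lost its call when either c-di-GMP replicate was left out. Idgf1, an imaginal disc growth factor, was the one further gene that fell at least 2-fold, by 1.06. For bam, a germline differentiation factor, c-di-GMP replicate 1 was at -1.12 and replicate 2 at -0.36, and without replicate 1 it was not called (adjusted p = 0.0842).

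Genes of ribosome assembly were higher with c-di-GMP. Together, the lists of the small subunit processome, of large subunit biogenesis and of RNA polymerase I with nucleolar regulators held 55 measured genes, of which 44 rose, against 3.27% of all genes. Their medians were 0.57, 0.58 and 0.49. The 2 c-di-GMP samples gave similar list medians when set against the mock mean. They were 0.55, 0.52 and 0.44 in replicate 1 and 0.54, 0.59 and 0.50 in replicate 2. With scrambled dsRNA the same lists had 21, 13 and 10 members called higher, at medians of 0.495, 0.50 and 0.45.

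RNA polymerase I, which transcribes the ribosomal RNA precursor, was measured through several subunits. The subunit gene Polr1C, shared with RNA polymerase III, stood at 0.40 in both c-di-GMP samples and at -0.32 and -0.27 in the mock samples (change 0.69, SE 0.06, adjusted p = 0.00382). Polr1A, the largest subunit, rose by 0.55, Polr1H by 0.54, Polr1B by 0.49 and Polr1E by 0.47, while Polr1F at 0.49 was not called (adjusted p = 0.0537). The nucleolar chaperones Nopp140 and Nph rose by 0.49 each. Tif-IA, the initiation factor that couples RNA polymerase I to growth signals, was at 0.20 (adjusted p = 0.119). In all, 8 of 12 members rose and none fell.

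The list of the small subunit processome, the particle that modifies and cleaves the precursor, also held other small subunit factors. Of its 24 measured members 21 rose and none fell. Fib, the fibrillarin methyltransferase, stood at 0.40 and 0.45 with c-di-GMP and at -0.24 and -0.19 in mock (change 0.64, SE 0.08, adjusted p = 0.00661). Nop60B, the pseudouridine synthase of rRNA, stood at 0.29 and 0.32 with c-di-GMP and at -0.33 and -0.38 in mock (change 0.66, adjusted p = 0.00517). The kinase RIOK1, which acts late in small subunit maturation, stood at 0.37 and 0.33 with c-di-GMP and at -0.41 and -0.55 in mock (change 0.83, adjusted p = 0.0053). Thus enzymes of early modification and of late maturation were both higher. Mat89Ba rose by 0.89, CG12325 by 0.69 and l(3)72Dn by 0.67. Nop10 was at 0.61 without a call (adjusted p = 0.0885), CG1671 at 0.21 and Nop17l at -0.25.

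In large subunit biogenesis 15 of 19 members rose and 2 fell. CG13185 stood at 0.49 and 0.76 with c-di-GMP and at -0.36 and -0.43 in mock (change 1.02, SE 0.16, adjusted p = 0.0127). Without c-di-GMP replicate 2 CG13185 was not called. The factor eIF6, which keeps the large subunit from joining too early, stood at 0.52 and 0.57 with c-di-GMP and at -0.34 in both mock samples (change 0.89, SE 0.07, adjusted p = 0.00337). Surf6 rose by 0.76, CG1542 by 0.80, CG11563 by 0.89 and pit, the helicase Pitchoune, by 0.66. The members that fell were the GTPase genes Non1 at -0.42 and Ns4 at -0.37. Without c-di-GMP replicate 1 the numbers called higher in the 3 lists were 13, 11 and 6, and without replicate 2 they were 9, 8 and 2, with list medians between 0.44 and 0.59.

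The measured cytosolic ribosomal proteins did not follow, though only 34 of 86 listed genes had a probe set assigned to them alone. Of 34 measured cytosolic ribosomal protein genes, 0 were called in limma and 2 had an unadjusted p under 0.05, against 21.7% of all genes. The changes of the 34 lay between -0.18 and 0.31 around a median of -0.02. The highest was RpS30 at 0.30 (adjusted p = 0.0594). Mitochondrial ribosomal proteins had a median of 0.13, and 6 of 69 rose, led by mRpL21 at 0.40 and mRpL52 at 0.39. The share called, 8.7%, was near the 7.44% of all genes. Among 29 aminoacyl-tRNA synthetases LeuRS at 0.46 and AsnRS at 0.29 rose (6.9% called, median 0.13). Of 39 translation initiation factors 4 rose, eIF6 among them with eIF4EHP at 0.36, eIF2beta at 0.30 and eIF3j at 0.26, while eIF3l fell by 0.31 (12.8% called).

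**Figure D2:**
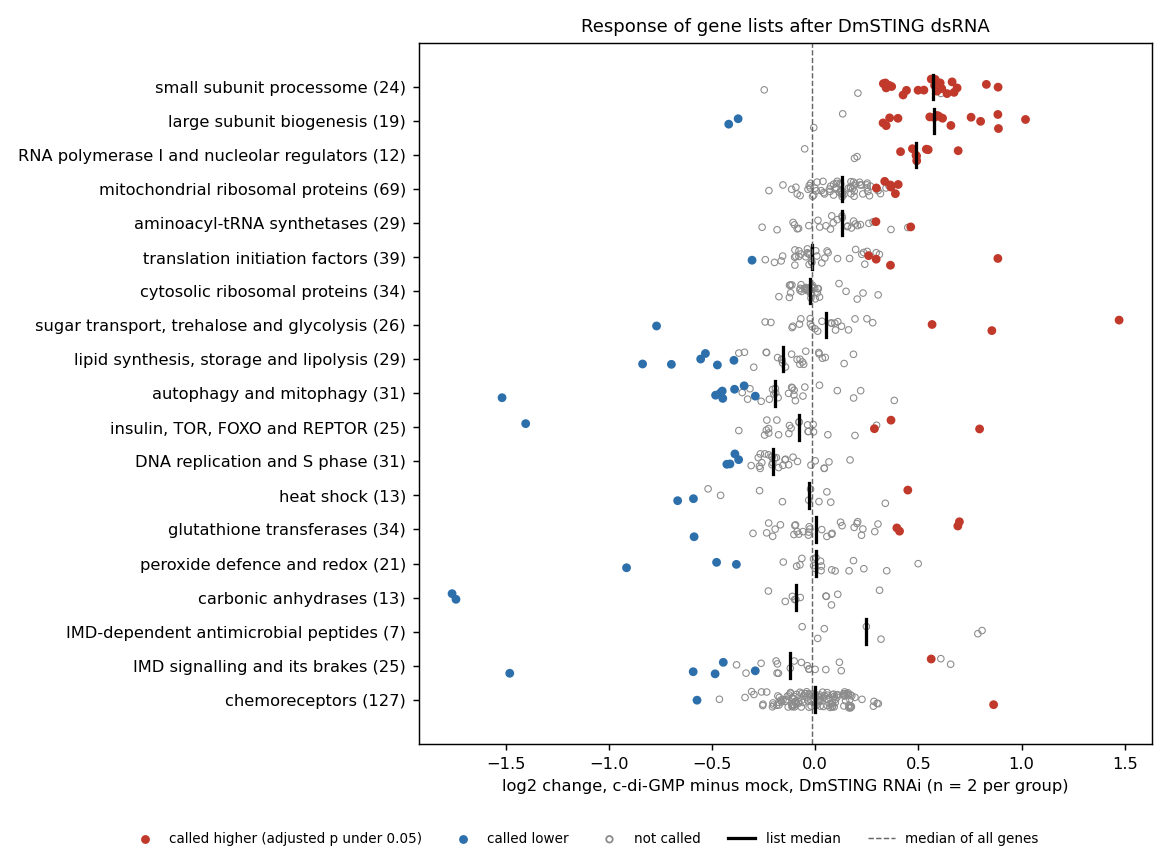
Log2 change, c-di-GMP minus mock after DmSTING dsRNA (horizontal axis, n = 2 per group), of the measured members of 19 gene lists, with the number of members in brackets; filled points were called higher (red) or lower (blue), open points were not called, black bars are list medians and the dashed line is the median of all genes. The 3 ribosome biogenesis lists have medians of 0.57, 0.58 and 0.49, whereas cytosolic ribosomal proteins lie around -0.02.

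Lipid genes were lower where they changed, 6 of 29 falling and none rising (median -0.16). Of all genes, 4.17% were called lower and 3.27% higher. The gene mino, a glycerol-3-phosphate acyltransferase at the entry to glycerolipid synthesis, stood at -0.40 and -0.43 in the c-di-GMP samples and at 0.45 and 0.40 in the mock samples (change -0.84, SE 0.08, adjusted p = 0.00433). Lsd-1, a perilipin of the lipid droplet surface, stood at -0.24 and -0.45 with c-di-GMP and at 0.24 and 0.47 in mock (change -0.70, adjusted p = 0.0149). The remaining called members took in both synthesis and breakdown: FASN1, a fatty acid synthase, at -0.56, AcCoAS, which makes acetyl-CoA from acetate, at -0.53, ACC, the acetyl-CoA carboxylase, at -0.39 and the triglyceride lipase bmm (Brummer) at -0.47. The malic enzyme Men-b was the one called gene of 18 of the TCA cycle list, at -0.39 (5.56% called, against 7.44% of all genes). Of 64 genes of the respiratory chain and ATP synthase 0 were called in limma (median 0.07). Among these, 6 had an unadjusted p under 0.05, all higher, against 21.7% of all genes.

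Autophagy and mitophagy genes fell in 8 of 31 cases, against 4.17% of all genes, and rose in none (median -0.19). Beside BNIP3 these were Pink1, the kinase that flags damaged mitochondria, at -0.45, Atg7, the activating enzyme of the conjugation system, at -0.48, Atg8a, the protein conjugated to autophagosome membranes, at -0.46, Atg18a at -0.45, Atg9 at -0.39, Atg5 at -0.34 and Atg2 at -0.29. Atg8a stood at -0.22 and -0.30 with c-di-GMP and at 0.19 and 0.21 in mock (SE 0.06, adjusted p = 0.00999). Atg1, the kinase that starts the process, was at 0.11 (adjusted p = 0.545). Without c-di-GMP replicate 1 or 2, 2 and 1 members were still called.

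Of 25 genes around insulin, TOR, FOXO and REPTOR, 3 rose and REPTOR-BP alone fell (16% called, against 7.44% of all genes). The gene scyl, an inhibitor of TOR signalling, stood at 0.34 and 0.37 with c-di-GMP and at -0.46 and -0.42 in mock (change 0.80, SE 0.10, adjusted p = 0.00767). ImpL2, a secreted insulin antagonist, rose by 0.37, and SNF4Agamma, a subunit of the energy-sensing kinase AMPK, by 0.29.

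Of 31 replication and S phase genes 4 fell and none rose (12.9% called, against 7.44% of all genes). The 4 were Mcm2 at -0.43, CycE at -0.41, Cdk2 at -0.39 and Mcm5 at -0.37 (median of the list -0.21). In the pyrimidine list, r-l, which completes UMP synthesis, rose by 0.47, while su(r) and pyd3, which act in pyrimidine breakdown, fell by 0.39 and 0.38. None of the 12 purine synthesis genes was called in limma, and 4 had an unadjusted p under 0.05, against 21.7% of all genes. In the proteasome list 1 of 37 fell, Rpt3R, at -0.58.

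The detoxification and stress genes that were called moved in both directions. Of 34 glutathione transferases 4 rose and 1 fell. GstD5 stood at 0.63 and 0.58 with c-di-GMP and at -0.15 and -0.04 in mock (change 0.70, SE 0.08, adjusted p = 0.00509). GstD2 rose by 0.69, GstD3 by 0.41 and GstE7 by 0.40, and GstT4 fell by 0.59; whether probe sets of these paralogues cross-hybridise was not tested. Peroxide-handling genes fell where called: Prx6c, a peroxiredoxin, stood at -0.23 and -0.81 with c-di-GMP and at 0.48 and 0.31 in mock (change -0.91, SE 0.18, adjusted p = 0.0256), Cat, catalase, changed by -0.48 and maf-S, the partner of the oxidative stress factor Cnc, by -0.38. Of 77 cytochromes P450 1 rose and 3 fell, 5.19% called, which is below the 7.44% of all genes. Of 29 UDP-glycosyltransferases 2 rose and 2 fell (13.8% called). Among 13 heat shock genes the inducible Hsp68 at -0.67 and the co-chaperone stv at -0.59 fell and the mitochondrial chaperonin Hsp60A rose by 0.45. Of the 22 genes of the unfolded protein response none was called in limma (median 0.05). An unadjusted p under 0.05 was found for 5 of them, near the 21.7% of all genes.

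In immune signalling, the changes shared by both c-di-GMP samples were mostly falls. Of 25 genes of IMD signalling and its brakes 5 fell and 1 rose (all genes: 4.17% lower, 3.27% higher). That balance rested on both arrays: without c-di-GMP replicate 1, 3 members were called higher and 1 lower, and without replicate 2, 0 were called higher and 4 lower. With scrambled dsRNA, 4 members of this list were called lower and 1 higher. The largest fall after DmSTING dsRNA was that of dnr1, Defense repressor 1, an inhibitor of the IMD pathway. It stood at -0.63 and -0.68 in the c-di-GMP samples and at 0.86 and 0.79 in the mock samples (change -1.48, SE 0.09, adjusted p = 0.00211). Diap2, the ubiquitin ligase that the pathway needs, fell by 0.59, Charon, an ankyrin-repeat coactivator of Relish, by 0.49, the deubiquitinase CYLD by 0.45 and the kinase IKKbeta by 0.29. POSH, a ligase that limits signalling through Tak1, rose by 0.56. The falling members thus included both factors that promote the pathway and factors that restrain it. Of 16 genes of the Toll cascade 1 fell, the serine protease grass at -0.56. GNBP3, a receptor of fungal glucan, was the 1 called gene of 9 peptidoglycan recognition and binding proteins, at -0.27.

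In the list of 12 STING-linked antiviral genes 3 fell and none rose, while 4.17% of all genes were called lower. The 3 were CG7194 at -0.60, Sting, which is the target of the dsRNA, and IKKbeta, already counted in the IMD list. With the replicate block, or with only the 4 DmSTING RNAi arrays, 2 fell. Nazo, an antiviral gene downstream of Sting, was higher in both c-di-GMP samples, at 0.08 and 0.68, than in the mock samples, at -0.29 and -0.30, but did not pass the test (change 0.68, SE 0.19, adjusted p = 0.0786). It was called after quantile normalization (0.71, adjusted p = 0.0267), with array weights (adjusted p = 0.0296) and without c-di-GMP replicate 1 (0.98, adjusted p = 0.0334). The 2 c-di-GMP samples lay further apart than c-di-GMP replicate 1 and the mock samples. The receptors cGlr1 and cGlr2, which make cyclic dinucleotides, were at 0.13 and -0.09, and Srg1, Srg2, Vago and Dcr-2 were at -0.24, -0.27, 0.09 and 0.20, none called. The antiviral gene vir-1 was at -0.55 (adjusted p = 0.0506). In neighbouring lists, 0 of 8 JAK-STAT genes were called in limma, 2 having an unadjusted p under 0.05 (21.7% of all genes). The TNF homologue egr at -0.62 was the 1 called of 12 JNK genes. Of 11 apoptosis genes p53 rose by 0.37, while the caspase Dcp-1 fell by 0.37 beside Diap2. In the small RNA machinery vig at 0.49 and Fmr1 at 0.35, both linked to the RNA-induced silencing complex, rose among 13. The apoptosis and small RNA lists had 27.3% and 15.4% called, against 7.44% of all genes.

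Antimicrobial peptide genes separated the 2 c-di-GMP samples from each other. In replicate 1, 6 of the 7 measured IMD-dependent peptides lay below both mock samples, and in replicate 2 all 7 lay above both. Over all genes, 45.4% lay below both mock samples in replicate 1 and 37.9% above both in replicate 2. Def, the defensin, stood at -1.12 and 1.07 in c-di-GMP replicates 1 and 2 and at -0.12 and -0.02 in the mock samples. CecB, a cecropin, stood at -0.61 and 1.47 with c-di-GMP and at -0.30 and -0.42 in mock. Mtk, the peptide metchnikowin, stood at -0.10 and 1.504 with c-di-GMP and at 0.01 and -0.22 in mock, so that replicate 1 lay between the mock samples. In these 3 genes the gap between the c-di-GMP samples was several times that between the mock samples.

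With both replicates averaged, none of the 7 was called in limma, and none had an unadjusted p under 0.05. Their changes were 0.81 for Mtk (SE 0.43), 0.79 for CecB, 0.32 for AttD, 0.25 for Listericin, 0.04 for Def, 0.01 for edin and -0.06 for DptB. The median of the 7 was 0.25, and it was 0.85 for replicate 2 alone and -0.26 for replicate 1 alone, each set against the mock mean. Without replicate 1, 5 of the 7 were called higher, and without replicate 2 none was. Each of those fits rests on 1 c-di-GMP array, whose spread is assumed to match that of the other groups.

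PGRP-LB, PGRP-SB1 and pirk were low in replicate 1 and high in replicate 2 as well. PGRP-LB, an amidase that degrades peptidoglycan, stood at -0.79 and 1.85 in c-di-GMP replicates 1 and 2 and at -0.05 and -0.11 in the mock samples. Its change was 0.61 (SE 0.70, adjusted p = 0.70). It was called higher, at 1.93, without replicate 1 (adjusted p = 0.0209) and lower, at -0.71, without replicate 2 (adjusted p = 0.0478). PGRP-SB1, also an amidase, stood at -1.06 and 0.79 with c-di-GMP and at -0.06 and -0.05 in mock, for a change of -0.08. It was called higher, at 0.84, without replicate 1 (adjusted p = 0.0361) and lower, at -1.01, without replicate 2 (adjusted p = 0.0408). The inhibitor pirk stood at -0.53 and 1.55 with c-di-GMP and at -0.21 and -0.08 in mock. Rel itself stood at -0.82 and 0.06 with c-di-GMP and at -0.07 and -0.02 in mock, and PGRP-LF, a transmembrane inhibitor of the pathway, at -0.87 and 0.11 with c-di-GMP and at 0.00 in both mock samples, so in both genes replicate 1 was low and replicate 2 near the mock samples. The other recognition proteins PGRP-LE, PGRP-SC2, PGRP-LA and PGRP-SB2 and the binding protein GNBP2 had changes between -0.18 and 0.02.

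Of the 15 Toll-dependent effectors, Drs and IM33 showed the split. Drs, drosomycin, stood at -1.34 and 0.64 with c-di-GMP and at -0.03 and 0.03 in mock, and IM33 at -0.40 and 1.02 with c-di-GMP and at -0.11 and 0.00 in mock. The other 13, the Bomanins BomS4, BomS5, BomT2, BomT3, BomBc2 and BomBc3, the drosomycin-like genes and BaraB, had changes between -0.07 and 0.23, and of the 15 none was called in limma or had an unadjusted p under 0.05. The iron carrier Tsf1 stood at -0.33 and 0.90 with c-di-GMP and at -0.16 and -0.03 in mock.

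Over all genes, c-di-GMP replicate 2 lay at least 1 log2 unit above replicate 1 in 30 genes, and the reverse held for 1, CG15615, at 0.44 in replicate 1 and -0.57 in replicate 2. No gene differed by as much between the mock replicates, 20 did between the c-di-GMP replicates with scrambled dsRNA and 1 between the mock replicates with it. None of the 31 was called. Of the 30, 11 belonged to the lists of antimicrobial peptides, Toll effectors, recognition proteins and IMD signalling. In 24 of the 30 replicate 1 lay below both mock samples while replicate 2 lay above both, an arrangement that their choice by this difference favours and that 853 of all genes showed. Relative to the mock mean, the median of the 30 was -0.35 in replicate 1 and 0.95 in replicate 2. Outside the immune lists were CG8519 at -0.25 and 1.61, CG32373 at -0.23 and 1.47, the GTP cyclohydrolase gene Pu at -1.04 and 0.09 and the solute carriers Oatp74D at -0.997 and 0.06 and yin at -0.29 and 0.72, in replicates 1 and 2. CG9717, at -1.79 and -0.29, was lower than the mock samples in both replicates. The SD of the replicate difference over all genes was 0.196 for c-di-GMP and 0.119 for mock. With scrambled dsRNA it was larger, 0.233 for c-di-GMP and 0.166 for mock.

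**Figure D3:**
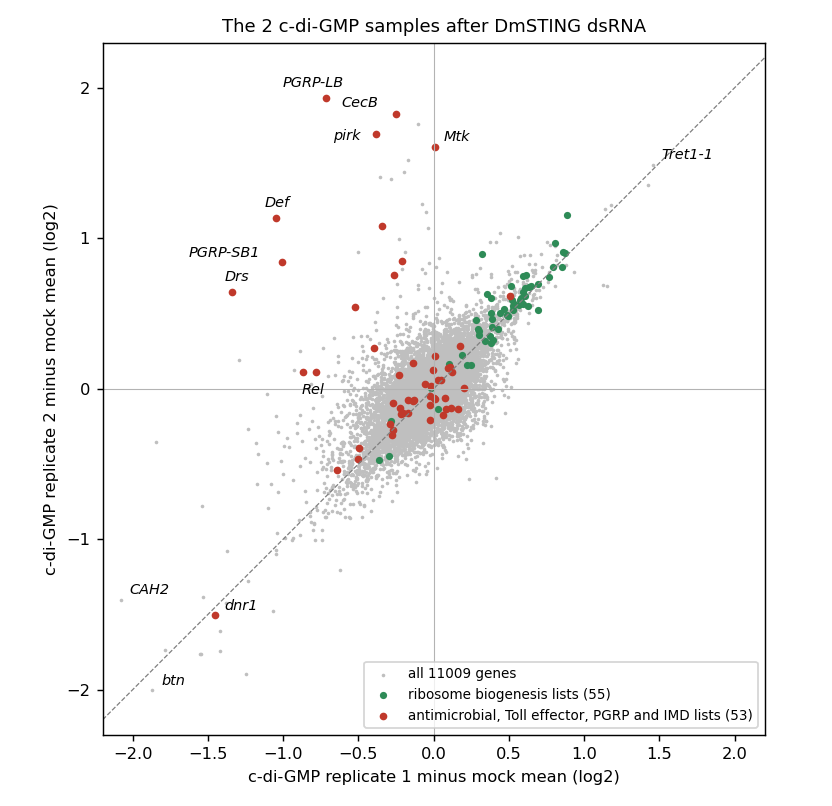
Log2 value of c-di-GMP replicate 1 (horizontal axis) and replicate 2 (vertical axis) after DmSTING dsRNA, each minus the mean of the 2 mock samples, for 11009 genes (grey), the 55 genes of the ribosome biogenesis lists (green) and the 53 genes of the immune lists (red); the dashed line marks equal values. Ribosome biogenesis genes follow the line, whereas PGRP-LB, Def, PGRP-SB1 and Drs lie below 0 in replicate 1 and above 0 in replicate 2.

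Set beside the arrays with scrambled dsRNA, most of the response was common to both arms. Of the genes called higher after DmSTING dsRNA, 279, or 77.5%, were also called higher with scrambled dsRNA, where 456 (4.14%) were called higher, so that they made up 61.2% of those. Of the genes called lower, 378 were shared, which is 82.4% of the 459 after DmSTING dsRNA and 43.3% of the 873 (7.93%) with scrambled dsRNA. The arms share no arrays, but 1 estimate of spread. Over the 819 called genes the changes of both arms correlated at Pearson's r = 0.963, and over all genes at 0.725. The 819 were chosen by their change in the DmSTING arm, which favours a high r. Both are correlations across genes, which are not independent replicates.

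No gene passed the test of the difference between the arms, 0 of 11009 in limma at a smallest adjusted p of 0.988, and 540 (4.91%) had an unadjusted p under 0.05, 362 (3.29%) of them positive and 178 (1.62%) negative. CG18234 was the 1 gene called in both arms in opposite directions, at -0.42 after DmSTING dsRNA and 0.43 with scrambled dsRNA (difference -0.85, unadjusted p = 0.000302). CG6908 was at 0.91 after DmSTING dsRNA and 0.03 with scrambled dsRNA (difference 0.88, unadjusted p = 0.0057). GstD5 was at 0.70 after DmSTING dsRNA and 0.31 with scrambled dsRNA (difference 0.39, unadjusted p = 0.00837). The differences of the positive sign with the smallest p were those of CG15740 and CG13577, which were not called after DmSTING dsRNA (0.20 and 0.16) and fell with scrambled dsRNA (-0.50 and -0.55).

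**Figure D4:**
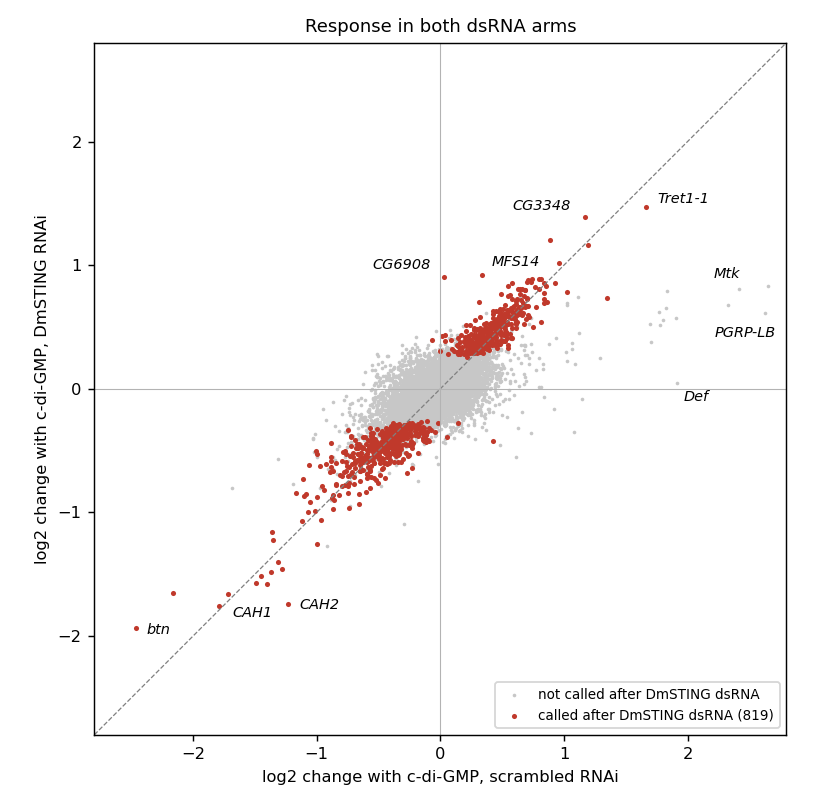
Log2 change with c-di-GMP after DmSTING dsRNA (vertical axis) against that with scrambled dsRNA (horizontal axis) for each gene; red marks the 819 genes called after DmSTING dsRNA and the dashed line equal changes. The called genes lie along the line, while Mtk, PGRP-LB and Def have changes of 0.81, 0.61 and 0.04 after DmSTING dsRNA and 2.42, 2.62 and 1.91 with scrambled dsRNA, without passing the test of the difference.

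For the antimicrobial genes the size of the difference between arms depended on which c-di-GMP array of the knockdown was used. With scrambled dsRNA and c-di-GMP, Mtk stood at 2.37 and 2.24, Def at 1.58 and 1.99 and PGRP-LB at 2.52 and 2.67. These values lie above both c-di-GMP samples of the knockdown. The same held against knockdown replicate 2 for 22 of the 30 genes with replicate 2 at least 1 log2 unit above replicate 1. A share over all genes was not computed, and the 30 were chosen by their replicate difference, so this count is description only. Mtk differed between the arms by -1.61 (SE 0.61, unadjusted p = 0.0333), Listericin by -1.04 (unadjusted p = 0.0306), Def by -1.87 (unadjusted p = 0.0598) and PGRP-LB by -2.02 (unadjusted p = 0.0797). Without replicate 2, the difference rested on 1 c-di-GMP array of the knockdown, whose spread was taken from the other groups. The gap between the 2 c-di-GMP replicates then no longer counted in that spread. In that fit PGRP-LB differed by -3.34, Def by -2.96, CG32373 by -2.50, Mtk by -2.41, PGRP-SB1 by -2.16 and Tsf1 by -1.94. Smaller differences were those of mspo at -1.59, Listericin at -1.55, edin at -1.34, AttD at -1.28, yin at -1.23 and PGRP-LF at -1.10. Without replicate 1, 0 genes were called in limma and 529 had an unadjusted p under 0.05.

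**Figure D5:**
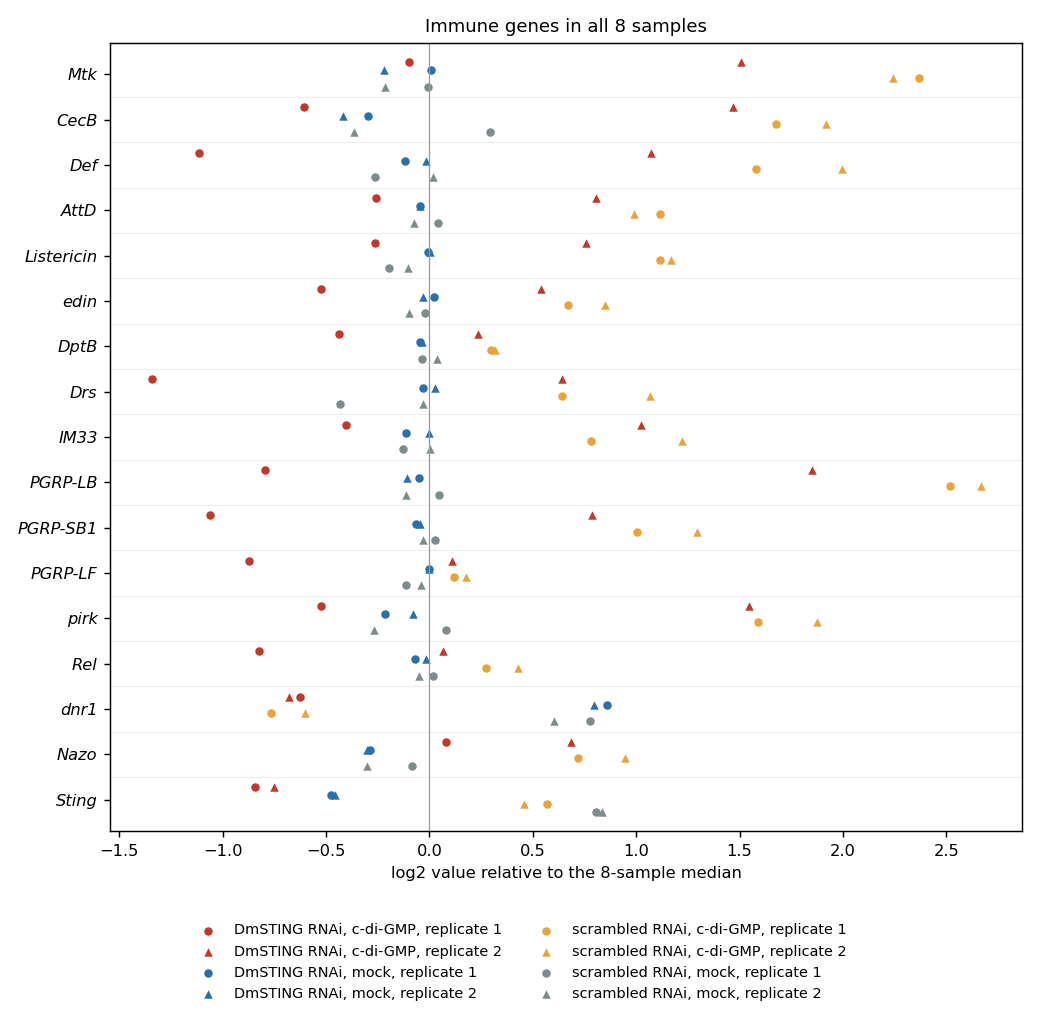
Log2 values relative to the 8-array median (horizontal axis) of 17 immune genes in all 8 arrays; circles are replicate 1 and triangles replicate 2, coloured by dsRNA and treatment. For Mtk, Def and PGRP-LB the knockdown's c-di-GMP replicate 1 lies at -0.10, -1.12 and -0.79 and replicate 2 at 1.504, 1.07 and 1.85, whereas dnr1 is low in both.

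Few marker genes of blood and other cell types were called, and most of these lists are short. Of 20 plasmatocyte markers 1 fell (5%, against 7.44% of all genes called), the engulfment receptor drpr at -0.35 (median of the list -0.09). NimC1 was at -0.56 (adjusted p = 0.0602). In limma 5 of the 20 had an unadjusted p under 0.05, against 21.7% of all genes. None of 3 crystal cell, 8 lamellocyte, 8 fat body, 8 neuron and 6 muscle markers was called in limma, 1 lamellocyte and 1 neuron marker having an unadjusted p under 0.05, at list medians between -0.17 and 0.16. Of 16 germline and developmental regulators 3 fell, stai, a stathmin that binds tubulin, at -0.84 beside btn and bam. Of the 22 solute carriers listed, Indy, a citrate transporter, rose by 0.32 beside MFS14, and MFS15 and MFS16 fell by 0.41 and 0.28. One of 19 ecdysone response genes was called, ImpL2, and none of 13 iron transport genes was called in limma, 2 having an unadjusted p under 0.05. The lists held 138 of the 819 called genes, and 681 lay outside them.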

How the data were processed

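Total RNA was measured on 8 arrays labelled with an Affymetrix kit, per the labels' protocols. The deposited values are log2 values of 16718 probe sets, each centred by the authors' processing on its own median over the 8 arrays (within 1e-06 of 0). Their log base, summarization, scaling and software are not stated in the labels or the table; base 2 was assumed, and that higher means more transcript rests on Sting being lower after DmSTING dsRNA. A filter on dim probe sets was not possible without levels.

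Probe sets with 1 gene symbol (12339; 367 had several, 4012 none) were averaged per gene, and 920 genes had more than 1. For 11009 genes, limma 3.58.1 (R 4.3.3) fitted 4 group means over 8 arrays, with contrasts of c-di-GMP against mock in each arm and of their difference and Benjamini-Hochberg adjustment over all genes. Errors are its SE with n = 2 per group, and the number of arrays limits precision. Adjusted p-values throughout are limma's. The script was tested on simulated data.

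The genes and lists were chosen with earlier results of these data known, and misassigned list members were removed after the files were read. Named by rule were the 15 called genes highest and lowest, Sting, up to 6 called members per list (otherwise 2 of smallest p), all members of 5 short lists, the genes with the largest replicate differences and those with the strongest difference between arms. Other genes were named after their values were seen. Alternatives covered normalization, spread, weights, probe sets, the replicate block and leaving out each array.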

Additional observations from a re-analysis of the deposited data

How the results depend on the processing

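The count of 819 called genes (360 higher, 459 lower) was between 778 and 823 with array medians subtracted, a robust spread, only the 4 DmSTING RNAi arrays, the replicate block, the probe set of largest SD or only genes with 1 probe set. It was 1294 (563 higher, 731 lower) after quantile normalization and 1378 (563 higher, 815 lower) with array weights; the cause was not tested. Leaving out 1 array gave between 0 and 1026 calls, 0 to 427 higher and 0 to 599 lower. Without c-di-GMP replicate 1 or 2 of the DmSTING arm it was 300 (165 higher, 135 lower) and 162 (76 higher, 86 lower), and without either mock replicate 0; these fits have 1 array in a group. Of 121 named genes called with all arrays, 61 and 80 lost the call without c-di-GMP replicates 1 and 2 and 121 without either mock replicate. PGRP-SB1 was at 0.84 without c-di-GMP replicate 1 and -1.01 without replicate 2, and PGRP-LB at 1.93 and -0.71. The difference between arms had 0 calls, and between 0 and 12 when 1 array was left out, 12 only without c-di-GMP replicate 2 (all lower). With the replicate block 785 genes were called (347 higher, 438 lower), 715 of them among the 819. Deviations of same-numbered c-di-GMP and mock arrays after DmSTING dsRNA correlated at 0.009, and the other 5 pairs of groups between 0.01 and 0.289, the highest being the c-di-GMP groups of both arms. As not every pair was above 0.1, the numbers were not taken to pair the samples.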
